A study of Mus musculus with 2 samples.

Results

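Endocardial cells are the endothelial cells that line the chambers of the heart. They were taken here from single-cell RNA counts of the pressure-loaded mouse left ventricle. A barcode counted as an endocardial cell when it held at least 3 unique molecular identifiers (UMIs, which mark counted RNA molecules) over Npr3, Cytl1, Tmem108, Cgnl1, Vwf, Plvap and Chrm3. These had to come from 2 or more of the 7 genes, with at least 1 from Npr3, Cytl1 or Tmem108. The barcode could hold at most 1 UMI over the lymphatic genes Mmrn1, Reln, Ccl21a and Flt4 and at most 1 over Ptprc and Pdgfra. The cardiomyocyte genes Ttn, Myh6, Ryr2 and Tnnt2 had to stay under 2.5% of UMIs outside mitochondrial genes. This left 1652 of 10118 barcodes (16.3%, exact 95% binomial interval 15.6 to 17.1) in the library labelled p53 knockout (KO), and 1645 of 16060 (10.2%, 9.78 to 10.7) in the library labelled wild-type (WT), together 3297 of 26178 barcodes.

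By their labels, the libraries came from p53 knockout mice and from wild-type mice. Both groups had undergone transverse aortic constriction (TAC), in which a band around the aortic arch raises the pressure against which the left ventricle pumps, and hypertrophied left ventricles were taken 6 weeks later. Each library mixed tissue of 3 hearts, so there is 1 library per group and no replicate. Strain, age and the deleted part of the gene are not given in the sources used here. All intervals below are 95% and cover counting error only, and no p-value is given. The series addresses the role of p53 in cardiac hypertrophy.

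Endocardium separates the blood in the chambers from the muscle and forms, with its transformed descendants, the heart valves. It secretes signals to the muscle, among them neuregulin and endothelin, and in the embryo it builds the trabeculae and contributes to coronary vessels. It is set apart from capillary endothelium by natriuretic peptide receptor 3 and by low use of the fatty acid uptake genes of capillaries.

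The libraries differ in more than their labels. Endocardial cells had a median of 2112.5 UMIs in the library labelled KO and 1111 UMIs in the library labelled WT. Trp53 itself (ENSMUSG00000059552, chromosome 11, 69580359 to 69591873, plus strand, mm10) was not lower in endocardial cells of the library labelled KO, with 64.6 CPM against 41.4 CPM in the library labelled WT. The log2 ratio was 0.64 (0.28 to 1.02). CPM are counts per 1000000 nuclear-encoded UMIs, summed over the cells of a class. The labels name a 3' kit and do not give the deleted part, so this level may check nothing. The barcodes are made of 3 blocks of 9 bases, and whether the kit named in the labels gives such barcodes was not checked, so where in a transcript the reads start is uncertain. Xist, the RNA that silences 1 X chromosome in female cells, had 895 CPM against 2.53 CPM, and the Y-linked gene Ddx3y had 1.17 CPM against 170 CPM, so sex and genotype cannot be told apart. Transcripts of other cell types differed too. In endocardial cells 10 cardiomyocyte markers took 0.277% of UMIs in the library labelled KO and 0.860% in the library labelled WT, 5 haemoglobin and erythroid genes took 0.218% and 0.0588%, and 7 atrial genes took 0.129% and 0.00480%. Outside the sub-clusters set aside further on, the cardiomyocyte markers took 0.150% and 0.690%, the haemoglobin and erythroid genes 0.193% and 0.0509% and the atrial genes 0.0258% and 0.00257%. Their part in the results below was not tested. The libraries shared 105 barcodes, of which 12 and 9 were endocardial cells, with 0 endocardial in both.

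The cells carried the markers that chose them in both libraries, which describes the rule and tests nothing. Npr3, the receptor that clears natriuretic peptides, had 1355 CPM in the library labelled KO and 2261 CPM in the library labelled WT. Cytl1, a small secreted protein, had 178 and 698 CPM, and Chrm3, a muscarinic acetylcholine receptor, had 585 and 1154 CPM. Tmem108 had 1090 and 1263 CPM. Higher in the library labelled KO were Vwf, the clotting factor that carries factor VIII, at 2188 and 1453 CPM, Plvap, which forms the diaphragms of endothelial pores, at 759 and 471 CPM, and the junction protein Cgnl1 at 1427 and 1250 CPM. Of the endocardial cells, 67.3% and 75.4% had an Npr3 UMI and 21.4% and 41.2% a Cytl1 UMI. After each cell was thinned to 500 UMIs these shares were 41.0% and 57.0% for Npr3 and 7.87% and 24.8% for Cytl1. The rule itself thus leaned on different genes in the 2 libraries.

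Other endothelial genes marked the cells as well. Pecam1, an endothelial adhesion molecule, had 1730 and 1731 CPM, and 10 and 24 cells held no UMI over 26 endothelial genes. That list took 1.43% and 1.24% of UMIs, against 2.11% and 1.73% in capillary comparison cells. These were 1360 and 1390 barcodes with at least 3 UMIs from 2 or more of Rgcc, Gpihbp1, Btnl9, Cd300lg, Tcf15, Kdr and Flt1 and none over Npr3, Cytl1 and Tmem108. Gata4, an endocardial transcription factor, had 190 and 240 CPM, against 39.3 and 77.2 CPM in capillary cells and 128 and 175 CPM in fibroblasts. Nfatc1, the transcription factor of the embryonic valve endocardium, had 51.5 and 78.8 CPM, near its 56.6 and 55.0 CPM in capillary cells. The submitted cell type label is cardiomyocytes, whereas these cells carried endothelial and endocardial markers. Sub-clusters led by markers of other classes are given further on.

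**Figure D1:**
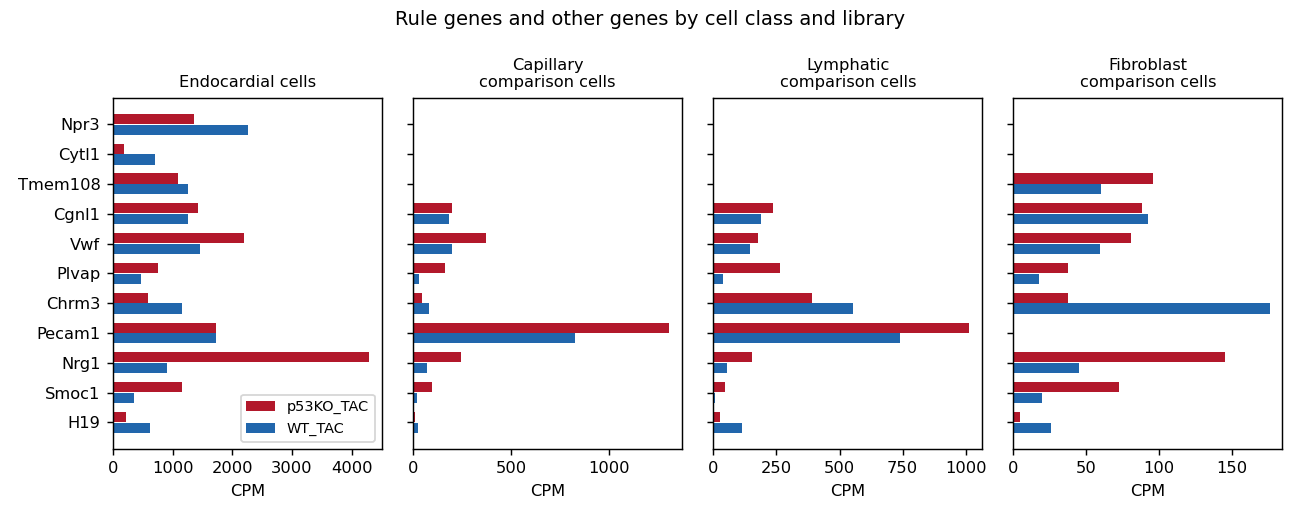
CPM (x axis, linear, own scale per panel) of the 7 rule genes and 4 other genes in 4 cell classes, with the library labelled KO above the library labelled WT for each gene. Nrg1 reaches 4294 and 896 CPM in endocardial cells, against 244 and 70.3 CPM in capillary cells; Npr3, Cytl1 and Tmem108 are 0 in capillary and lymphatic cells because the classes were defined that way.

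Cells at the edge of the rule were shallower and carried less of the program. Exactly 3 UMIs over the rule genes were held by 151 and 211 cells, with median depths of 1335 and 910 UMIs, 613 and 390 CPM of Nrg1 and 0.956% and 0.960% of endothelial UMIs. The 184 and 236 barcodes just outside, with 2 UMIs, had 449 and 121 CPM of Nrg1 and 0.716% and 0.862%. Since detection rises with depth, the share of barcodes in the rule was also taken with every barcode thinned to 500 UMIs. It was then 9.08% in the library labelled KO and 6.85% in the library labelled WT. The log2 ratio of the shares was 0.67 (0.57 to 0.77) as deposited and 0.41 after thinning.

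Genes that no rule used also differed between these cells and capillary endothelium. Only genes at least 2-fold apart in the same direction in both libraries were counted, so their agreement between libraries was required and is not a result. Of 9331 genes with at least 50 UMIs over the 2 classes in each library, 381 (4.08%) were at least 2-fold higher in endocardial than in capillary cells of both, and 309 (3.31%) were at least 2-fold lower in both. Among the 12 named as highest, Nrg1 (neuregulin 1, a growth factor for cardiomyocytes; ENSMUSG00000062991, chromosome 8, 31814551 to 32884029, minus strand) had a log2 ratio over capillary cells of 4.14 in the library labelled KO and 3.67 in the library labelled WT. H19, an imprinted noncoding RNA of fetal growth, had ratios of 4.28 and 4.53, and Plagl1, an imprinted zinc finger factor, 3.75 and 3.59. Smoc1, a secreted calcium-binding modulator of BMP signalling, had ratios of 3.61 and 4.08. Bmx, a tyrosine kinase of endocardium and arteries, had ratios of 3.91 and 3.67, and Cyp1b1, a cytochrome P450, had 457 and 139 CPM, against 35.0 and 8.35 CPM in capillary cells. Gpm6a, Epha7, Kank1, Col23a1, Sytl5 and Col4a3, a collagen IV chain, had ratios between 3.28 and 3.92.

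Lymphatic comparison cells (306 and 173 barcodes, median depths 2050 and 1090 UMIs) were chosen on Mmrn1, Reln, Ccl21a, Flt4, Prox1 and Lyve1, and fibroblasts (479 and 906 barcodes, 2131 and 1190.5 UMIs) on Pdgfra, Dcn, Col1a1, Col3a1 and Gsn. Several of these genes were shared with lymphatic comparison cells or fibroblasts. Gpm6a had 637 and 517 CPM in endocardial cells, against 491 and 417 CPM in lymphatic cells. Col23a1 was lower in endocardial cells, at 151 and 70.7 CPM, than in lymphatic cells, at 266 and 213 CPM. Cyp1b1 had 178 and 48.0 CPM in fibroblasts, against 457 and 139 CPM in endocardial cells. Nrg1, H19, Smoc1 and Plagl1 were higher in endocardial cells than in each of the 3 comparison classes, in both libraries; H19 came nearest in lymphatic cells, at 24.7 and 114 CPM, against 214 and 620 CPM.

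The 12 genes named as lowest against capillary cells included transcription factor, transporter and receptor genes. Dach1, a transcription factor of coronary artery growth, had 48.7 and 207 CPM in endocardial cells, against 687 and 1679 CPM in capillary cells. Slc28a2, a nucleoside transporter, had log2 ratios over capillary cells of -3.86 and -2.93, and Car4, the carbonic anhydrase of capillary membranes, of -3.90 and -2.91. Aplnr, the apelin receptor, had ratios of -2.74 and -3.24. Ccdc85a, Pcdh17, Nav3, Lnx1, Sybu, St8sia4, Rapgef4 and Pcdh12 also stood among the 12 lowest.

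Between the libraries, of 11032 genes with at least 50 UMIs, 639 (5.79%) were at least 2-fold higher and 744 (6.74%) at least 2-fold lower in the library labelled KO. The median log2 ratio was -0.07. Median-of-ratios scaling differed from this scale by -0.11 and so raised every ratio by that size. The counts were then 777 and 594, and the sign of small negative medians turned. Of capillary cells' 9403 genes, 527 (5.6%) were higher and 638 (6.79%) lower by the same measure.

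The 12 highest ratios included a hormone, a cytokine and a protein of leukocyte capture. Fgf23, a hormone best known from bone that lowers blood phosphate (ENSMUSG00000000182, chromosome 6, 127072902 to 127081408), had 741 UMIs in 102 endocardial cells of the library labelled KO, or 173 CPM (161 to 186), against 0 UMIs in the library labelled WT. Set against 3 UMIs in that library it was at least 114-fold higher. A count of 0 of 1645 cells allows a share of up to 0.182% of cells with an Fgf23 UMI at a median depth of 1111 UMIs, which does not limit the share of cells that express it. After thinning, 3.03% of endocardial cells in the library labelled KO had an Fgf23 UMI, against 1.04% of fibroblasts there, whose median depth of 2131 UMIs was close to the 2112.5 UMIs of endocardial cells. The 10 cells with the most Fgf23 UMIs held 49.9% of them.

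Selp, or P-selectin, which catches leukocytes on activated endothelium, had 468 CPM in the library labelled KO and 10.1 CPM in the library labelled WT, a log2 ratio of 5.50 (4.90 to 6.25). In fibroblasts Selp had 48.4 and 0 CPM. Il6, the cytokine interleukin 6, had 194 UMIs (45.4 CPM) against 0 UMIs, and 67.0% of its UMIs lay in 10 cells. Olr1, a receptor for oxidised lipoprotein, had 73.5 and 0.505 CPM, and Itih4, a secreted protease inhibitor, 48.7 and 1.01 CPM. P4ha3, a collagen prolyl hydroxylase, had 112 UMIs in 86 cells against 0 UMIs, at least 17.3-fold higher than 3 UMIs would be, with 22.3% of its UMIs in the top 10 cells.

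Other genes among the 12 rested on few cells or on markers of other classes. Nppa, atrial natriuretic peptide, had 1074 and 22.2 CPM, but 78.8% of its UMIs lay in 10 cells. A sub-cluster of 35 cells led by atrial cardiomyocyte genes held it at 41576 CPM, and outside the sub-clusters led by other classes it had 197 and 13.7 CPM. Fibroblasts of the same libraries had 216 and 21.3 CPM, and thinned shares of cells with an Nppa UMI were 11.7% and 1.03% in endocardial cells against 8.77% and 1.43% in fibroblasts. Cemip, a hyaluronan-degrading protein, and Saa3, an acute-phase protein, stood at 1220 and 847 CPM in a sub-cluster of 77 cells with mesothelial markers. Outside the sub-clusters led by other classes Cemip had 14.7 and 2.41 CPM and Saa3 had 7.53 and 0 CPM. Sfrp2, a Wnt antagonist, had 44.5 and 0.505 CPM and was higher in fibroblasts, at 107 and 7.99 CPM. Adamts8, a metalloproteinase, had 81.4% of its UMIs in 10 cells and lay mostly in the sub-cluster with Wnt9b described below.

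**Figure D2:**
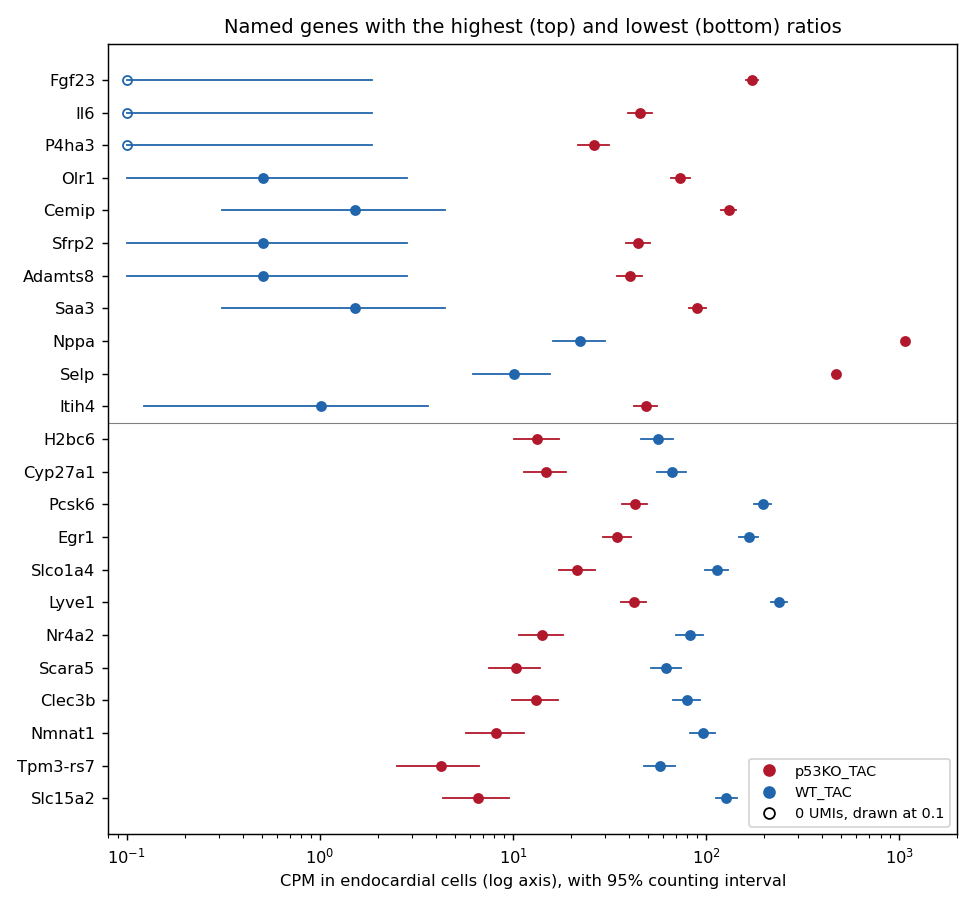
CPM in endocardial cells (x axis, log scale) of 11 of the 12 genes with the highest and the 12 with the lowest log2 ratios among genes eligible for naming; points are summed levels of each library and lines their exact 95% Poisson intervals. Open points mark 0 UMIs, which Fgf23, Il6 and P4ha3 had in the library labelled WT.

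The first 250 bases before the starts of 3 of these genes are shown because these genes were among the highest together and hold a letter match to the GATA motif AGATAA, searched on both strands. The motifs were chosen after the values were seen. Bases are from RefSeq, build GRCm38.p6, 5' to 3' on the gene's strand, with AGATAA or its reverse complement in capitals; for Olr1 a TGAGTCA, the reverse complement of the AP-1 motif TGACTCA, is also in capitals. Fgf23 lies at chr6:127072652-127072901 (plus strand), Olr1 at chr6:129507166-129507415 (minus strand) and Itih4 at chr14:30886226-30886475 (plus strand).
Fgf23: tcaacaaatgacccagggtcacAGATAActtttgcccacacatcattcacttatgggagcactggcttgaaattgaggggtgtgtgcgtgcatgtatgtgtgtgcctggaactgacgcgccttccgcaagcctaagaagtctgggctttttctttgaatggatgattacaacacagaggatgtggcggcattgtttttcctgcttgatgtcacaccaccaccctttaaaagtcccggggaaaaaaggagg
Olr1: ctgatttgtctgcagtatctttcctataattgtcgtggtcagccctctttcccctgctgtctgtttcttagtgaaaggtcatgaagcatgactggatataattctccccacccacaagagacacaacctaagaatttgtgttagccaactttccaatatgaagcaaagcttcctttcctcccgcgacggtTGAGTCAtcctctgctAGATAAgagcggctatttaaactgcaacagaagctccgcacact
Itih4: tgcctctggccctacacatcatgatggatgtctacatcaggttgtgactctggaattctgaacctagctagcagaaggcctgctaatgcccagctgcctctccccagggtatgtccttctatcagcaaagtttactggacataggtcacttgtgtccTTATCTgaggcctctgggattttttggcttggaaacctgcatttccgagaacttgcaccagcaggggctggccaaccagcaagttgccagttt
Of the 12 highest genes 10 had an entry, and 4 held AGATAA, 2 held TGACTCA and 0 held the E-box CACGTG, against 10.3%, 4.43% and 6.05% of 27025 promoters of the same length. The fourth gene with AGATAA was Saa3, whose start did not match the transcripts it was checked against. Of the 12 lowest, 7 had an entry and 1 held AGATAA. A match of letters is a description and not a bound site.

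The 12 lowest ratios included transporters, immediate early genes and genes that fibroblasts also express. Slc15a2, a peptide transporter, had 6.56 CPM in endocardial cells of the library labelled KO and 127 CPM in the library labelled WT, a log2 ratio of -4.26 (-4.90 to -3.71), and its ratio in capillary cells was -5.51. Nmnat1, a nuclear enzyme of NAD synthesis, had 8.19 and 96.0 CPM, and Tpm3-rs7, a tropomyosin-related sequence, 4.21 and 57.6 CPM. Nmnat1 had 9.18 and 81.7 CPM in fibroblasts and Tpm3-rs7 had 1.67 and 32.0 CPM. Tpm3-rs7 resembles Tpm3, so reads may be shared between these genes and its level is uncertain.

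Clec3b, Scara5, Pcsk6 and Cyp27a1 had higher levels in fibroblasts than in endocardial cells in both libraries. Clec3b, which encodes tetranectin, had 13.1 and 79.3 CPM in endocardial cells, against 158 and 513 CPM in fibroblasts, and Pcsk6, a proprotein convertase, 42.8 and 197 CPM against 644 and 1256 CPM. Lyve1 and Slco1a4 were higher in endocardial cells than in fibroblasts of both libraries. H2bc6, a histone H2B gene, had 13.3 and 56.1 CPM in endocardial cells. Lyve1, a hyaluronan receptor, had 42.1 and 239 CPM, with a log2 ratio of -2.50 (-2.76 to -2.25). The ratio of Lyve1 was -2.48 in capillary cells and -0.16 in lymphatic cells, where it had 1293 and 1445 CPM. Slco1a4, an organic anion transporter, had 21.5 and 113 CPM. The immediate early genes Egr1, with 34.7 and 166 CPM, and Nr4a2, with 14.0 and 82.3 CPM, also stood among the 12 lowest. The immediate early list as a whole did not go this way: of its 30 measured members 8 were at least 2-fold higher and 5 lower, with a median of 0.37, against 7.13% higher and 9.64% lower of all 13184 genes with at least 20 UMIs. In fibroblasts Egr1 had 213 and 123 CPM. In capillary cells Nr4a2 had 40.6 and 27.8 CPM, with a log2 ratio of 0.54 whose interval held 0, and the difference between its 2 ratios was -3.08 (-3.76 to -2.40).

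Endocardial genes outside the rule went both ways. Of 28 measured members of that list, which needed at least 20 UMIs, 9 were at least 2-fold higher and 2 at least 2-fold lower, against 7.13% and 9.64% of 13184 genes, and the median log2 ratio was 0.11, against -0.09 over all genes. Nrg1 had 4294 and 896 CPM, with a log2 ratio of 2.26 (2.19 to 2.33), and after thinning 53.7% and 21.0% of endocardial cells held an Nrg1 UMI, against 7.10% and 2.32% of fibroblasts. Smoc1 had 1152 and 358 CPM, with a ratio of 1.69 (1.57 to 1.80). Bmp6, a bone morphogenetic protein, had 1277 and 445 CPM. Tmem100, a membrane protein of BMP-responsive endothelium, had 28.1 and 73.7 CPM, a ratio of -1.39 (-1.75 to -1.03).

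Among secreted signals, endothelin 1 differed between the libraries in endocardial cells more than in capillary cells. Edn1, endothelin 1, a vessel-constricting peptide made by endothelium, had 467 CPM in the library labelled KO and 37.4 CPM in the library labelled WT, a log2 ratio of 3.63 (3.307 to 3.997), against 0.34 in capillary cells. The difference between these ratios was 3.29 (2.62 to 3.96). Ece1, the enzyme that matures endothelin, had 1732 and 700 CPM. After thinning, 13.2% and 1.16% of endocardial cells had an Edn1 UMI, against 2.71% and 0.442% of fibroblasts. Of 31 measured members of the secreted-signal list, 8 were at least 2-fold higher and 5 lower, with a median of 0.25, against 7.13% and 9.64% of all genes. One of the 5, Cytl1, belongs to the membership rule. Fgf1 had 17.1 and 57.1 CPM and Nos3, the nitric oxide synthase of endothelium, had 386 and 407 CPM. Nos3 was higher in capillary cells, with a ratio of 1.34 there against -0.08 in endocardial cells.

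Genes of natriuretic peptide signalling went both ways. Npr1, the guanylyl cyclase receptor of atrial natriuretic peptide, had 198 and 95.5 CPM and Prkg1, the protein kinase of cyclic GMP, had 2475 and 2255 CPM. Pde5a, which degrades cyclic GMP, had 15.7 and 57.6 CPM. Of 11 measured members, which include the rule gene Npr3, 3 were higher and 3 lower by 2-fold, against 7.13% and 9.64% of all genes. The 3 higher were Nppa, Nppb and Npr1. Nppb had 257 and 18.2 CPM, with 71.4% of its UMIs in 10 cells, as Nppa had 78.8%. Npr1 had a log2 ratio of 1.05, which was 0.99 without low-quality cells and the highest doublet scores, 0.95 with cardiomyocyte genes under 1% and 0.94 without the sub-clusters set aside.

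In the BMP and TGF-beta list 3 of 29 members were at least 2-fold higher and 1 lower, with a median of 0.16, where all genes had 7.13% and 9.64%. Fst, the activin antagonist follistatin, had 19.7 and 3.03 CPM, with 77.4% of its UMIs in 10 cells. Eng, the co-receptor endoglin, had 2555 and 1537 CPM, and Bmpr2 had 682 and 569 CPM. Of 19 Notch members, 0 were higher and 0 lower by 2-fold, with a median of 0.10. Notch1 had 326 and 382 CPM and Rbpj, the DNA-binding partner of Notch, 112 and 199 CPM.

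Lists of clotting and adhesion, chemokines and senescence had positive medians. Of 28 measured clotting and adhesion members, which include the rule gene Vwf, 9 were at least 2-fold higher and 1 lower, with a median of 0.57. The shares of all genes were 7.13% and 9.64%, also for the chemokine and senescence lists. Thbd, thrombomodulin, had 708 and 415 CPM, Stab1, a scavenger receptor, 676 and 272 CPM, and Vcam1, a leukocyte adhesion molecule, 858 and 713 CPM. In the chemokine, cytokine and NF-kappaB list 13 of 22 members were at least 2-fold higher and 0 lower, and the median was 1.22. Il1r1, the interleukin 1 receptor, had 398 and 150 CPM, Il6st 1115 and 728 CPM, and Il33 22.5 and 23.7 CPM. In the senescence and secretome list 14 of 20 members were at least 2-fold higher and 0 lower, with a median of 1.56. It shares Il6, Cxcl1 and Ccl2 with the list before it, all at least 2-fold higher. It shares members with the clotting and adhesion list too, among them Icam1, so the counts of these lists are not independent. It also holds Igfbp5 and Igfbp7, binding proteins of insulin-like growth factors: Igfbp7 had 749 and 246 CPM and Igfbp5 1322 and 1454 CPM. In capillary cells the medians of the same members were 0.49, 0.81 and 1.51, for clotting and adhesion, chemokines and cytokines, and senescence in that order.

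**Figure D3:**
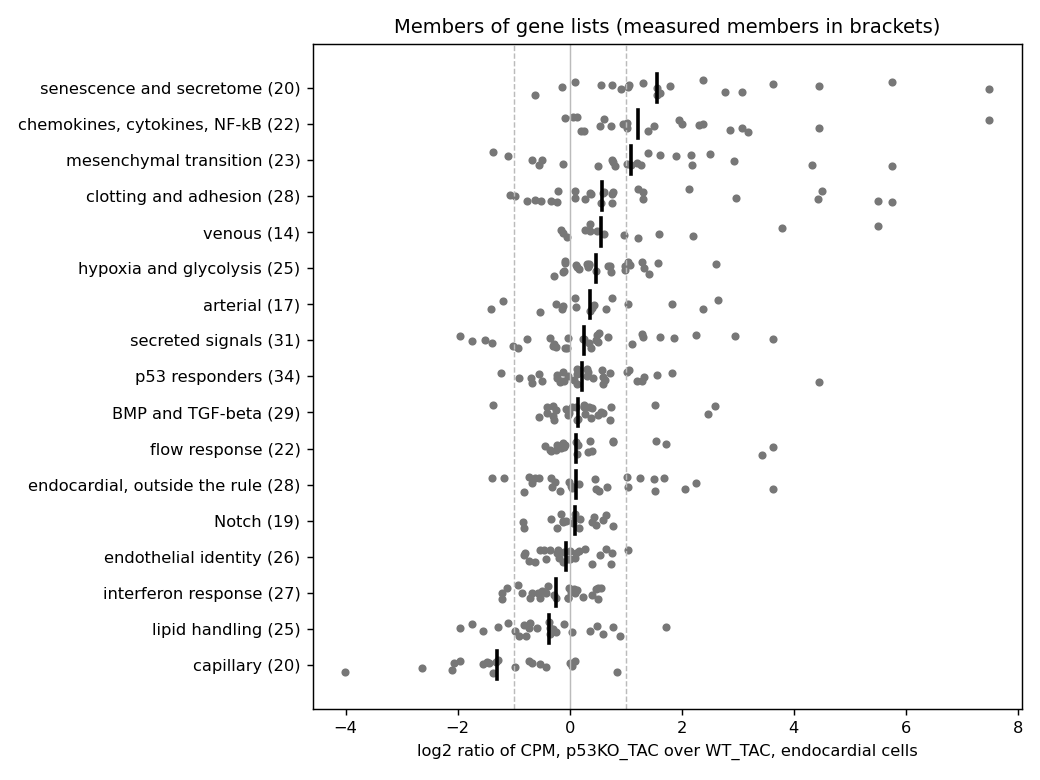
Log2 ratios of CPM in endocardial cells, the library labelled KO over the library labelled WT, for the measured members of 17 gene lists (grey points, spread vertically at random), with the median as a black bar and dashed lines at 2-fold. The senescence median is 1.56 and the capillary median -1.30.

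Matrix and vessel-type genes followed. Of 23 measured genes of endothelial to mesenchymal transition, 13 were at least 2-fold higher and 2 lower, with a median of 1.09, against 7.13% and 9.64% of all genes. Fn1, fibronectin, had 1193 and 209 CPM, Vim 705 and 762 CPM, Zeb1 414 and 581 CPM and Zeb2 384 and 610 CPM. In the same cells fibroblast markers took 0.439% and 0.390% of UMIs, mesothelial markers 0.0782% and 0.0255%, with 7 of 9 at least 2-fold higher, and smooth muscle markers 0.0349% and 0.0161%. The transition list itself holds the smooth muscle genes Acta2 and Tagln. The part of these markers in the count was not tested. Outside the sub-clusters set aside, 12 members were at least 2-fold higher and 1 lower. The same members had a median of 0.79 in capillary cells, with 10 higher and 2 lower. Of 30 matrix members 6 were higher and 2 lower, including Eln, elastin, at 1167 and 366 CPM and Sparc at 1120 and 331 CPM. The matrix median was 0.25, against 0.72 in capillary cells, where 10 members were higher and 1 lower. Of 20 capillary genes 11 were at least 2-fold lower and 0 higher, with a median of -1.30, against -0.42 in capillary cells, which some of these genes were used to choose. Cd36, a fatty acid transporter, had 331 and 969 CPM, and Fabp5, a fatty acid binding protein, 116 and 450 CPM. Aqp1, a water channel in the same list, had 892 and 499 CPM. Venous genes had 5 of 14 at least 2-fold higher, led by Selp, and 0 lower, with a median of 0.55. In capillary cells 7 of the same venous members were higher and 1 lower, with a median of 1.005. Arterial genes had 4 higher and 2 lower of 17, with a median of 0.37. In capillary cells 3 of the same arterial members were higher and 1 lower, with a median of 0.59. The shares of all genes in endocardial cells were 7.13% and 9.64%. Gja4, connexin 37, had 265 and 50.5 CPM in endocardial cells and the netrin receptor Unc5b 99.7 and 15.7 CPM.

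Lists of the p53 response and interferon had medians between -0.24 and 0.22. Of 34 genes that respond to p53, 8 were at least 2-fold higher and 1 lower, with a median of 0.22, set beside 7.13% and 9.64% of all genes. This list counts Trp53 itself. Gdf15 had the highest log2 ratio, 4.45, which was 0.26 after thinning. Cdkn1a had a ratio of 1.56 and Pltp, the lower member, -1.22. In capillary cells the same members had a median of 0.05, with 6 higher and 2 lower. Mdm2, the ubiquitin ligase of p53, had 92.0 and 100 CPM in endocardial cells, and Plk2, a polo-like kinase, had a log2 ratio of 1.03 there. Of 27 interferon genes 0 were higher and 3 lower in endocardial cells, with a median of -0.24. Ifitm3 had 255 and 180 CPM and Xaf1 46.6 and 108 CPM. Cell cycle genes had 1 of 17 at least 2-fold higher and 1 lower, near the 7.13% and 9.64% of all genes. The lower member, Mki67, had a log2 ratio of -1.75, which was 0.26 after thinning. Of 25 hypoxia and glycolysis genes 7 were higher and 0 lower, among them Slc2a1, a glucose transporter, at 38.6 and 6.06 CPM. Their median was 0.46, against 0.71 in capillary cells, where 9 members were higher and 0 lower. Of 15 imprinted genes 3 were higher and 1, H19, lower: Mest had 81.0 and 8.08 CPM and H19 had 214 and 620 CPM.

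**Figure D4:**
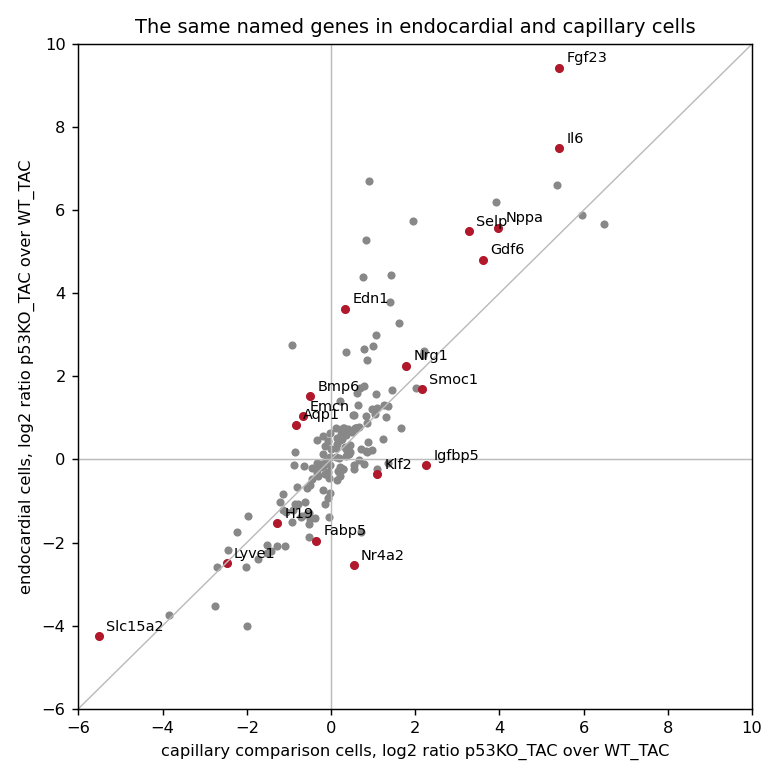
Log2 ratio of the library labelled KO over the library labelled WT in capillary comparison cells (x axis) and endocardial cells (y axis) for the named genes, with 18 labelled; the diagonal marks equal ratios. Edn1 lies far above it (3.63 against 0.34), while Selp and Slc15a2 are shifted in the same direction in both classes; ratios of genes with 0 UMIs, such as Fgf23, depend on the 0.5 UMI added.

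Sub-clusters within each library showed which cells carried these genes. Endocardial cells of each library were clustered alone at resolution 1, a setting chosen after clusters at 0.5 had been seen to mix classes. Sub-clusters led by markers of other classes were set aside, which left 1141 of 1652 cells (69.1%) in the library labelled KO and 1046 of 1645 (63.6%) in the library labelled WT. Arterial, venous and lymphatic markers were not used for this step. The ones set aside were led by capillary markers (93 and 165 cells), mesothelial markers (77 and 29), macrophage markers (76 and 58), cardiomyocyte markers (54 cells, and 119 and 52), pericyte markers (15 and 46), by fibroblast or adipocyte markers (134 and 130), by atrial markers (35 cells) and by unnamed gene models (27 cells). In most of them 9.62% to 35.2% of cells stood among the 8% of barcodes with the highest doublet scores, against 0% to 3.52% in those kept. The exceptions were the mesothelial ones, with 5.19% and 0%.

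A Colec11 state was present in both libraries. Sub-clusters 0 and 1 of the library labelled KO (503 cells) and 0 of the library labelled WT (328 cells) had Colec11, a secreted lectin, among their leading genes, and they shared 9 and 10 of 30 leading genes. Nrg1 had 6187 and 7967 CPM in the 2 sub-clusters of the library labelled KO and 2491 CPM in that of the library labelled WT. A sub-cluster with Wnt9b was found in each library as well, with 121 and 245 cells that shared 6 of 30 leading genes, namely Igfbp5, Inhba, Kcnc2, Pthlh, Stc1 and Wnt9b, a Wnt ligand. It had 928 and 148 CPM of Nrg1 and 326 and 2303 CPM of Npr3. The Wnt9b sub-cluster of the library labelled WT also shared 4 of 30 leading genes with sub-cluster 2 of the library labelled KO. These were Kcnc2, Lyve1, Nckap5 and Wipf3. In that sub-cluster 2, 3 of 12 measured lymphatic markers were at least 2-fold above the other endocardial cells, with a median log2 fold of 0.16. In the library labelled KO, sub-cluster 5 had 5 endocardial markers outside the rule, 6 capillary and 6 arterial markers at least 2-fold above the other endocardial cells, with median log2 folds of -0.51, 0.55 and 0.26. In the library labelled WT these counts were 1, 0 and 1 and the medians 0.09, -0.43 and 0.09. Shares of all genes 2-fold up in these sub-clusters are not given, so the marker counts describe only. The pairing of these sub-clusters by Colec11 and Wnt9b was chosen after their leading genes were seen.

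Several high genes of the library labelled KO peaked in single sub-clusters. Sub-cluster 10 of this library shared 5 of 30 leading genes with sub-cluster 7 of the library labelled WT. These were Ccn1, Cp, Ctla2a, Ptgs2 and Tgfbi. Sub-clusters 2 and 3 of the library labelled KO shared 4 and 3 with it, and sub-cluster 7 shared 0. Sub-cluster 10 (66 cells) held 1964 CPM of Fgf23, 4775 of Selp and 1116 of Ccl2, a monocyte chemokine. Its Npr3 level was 477 CPM, against 2730 CPM in sub-cluster 0, while Pecam1 had 1406 CPM and Emcn 3087 CPM. Of 14 measured venous markers 4, Selp among them, were at least 2-fold above the other endocardial cells, with a median log2 fold of 0.45. Of 27 measured endocardial markers outside the rule 3 were, with a median of -0.38. Sub-cluster 7 of the library labelled KO (92 cells) held 1035 CPM of Sfrp1, 780 of Gdf6, a bone morphogenetic protein family member, and 1020 of Bmp4. Sub-cluster 3 (160 cells) was led by Tagln, at 443 CPM, and Acta2. Both are smooth muscle markers and stood among its 10 leading genes. Of 6 measured smooth muscle markers these 2 were at least 2-fold above the other endocardial cells, with a median log2 fold of 0.27. Of 27 measured endocardial markers outside the rule 0 were, with a median of 0.10. Its 10 leading genes held 0 of these endocardial markers, as did those of sub-clusters 1, 2, 7 and 10. Shares of all genes 2-fold up in sub-clusters 3 and 10 are not given, so these counts describe only. Edn1 was more widely spread, between 118 and 1074 CPM in the 7 kept sub-clusters, against 29.0 to 66.0 CPM in the 5 of the library labelled WT. Ccl2, Sfrp1, Gdf6, Bmp4 and Tagln were chosen for mention after their values were seen. At resolution 0.5 the sub-cluster highest in Fgf23 held 243 cells at 792 CPM, so its size depends on the setting.

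**Figure D5:**
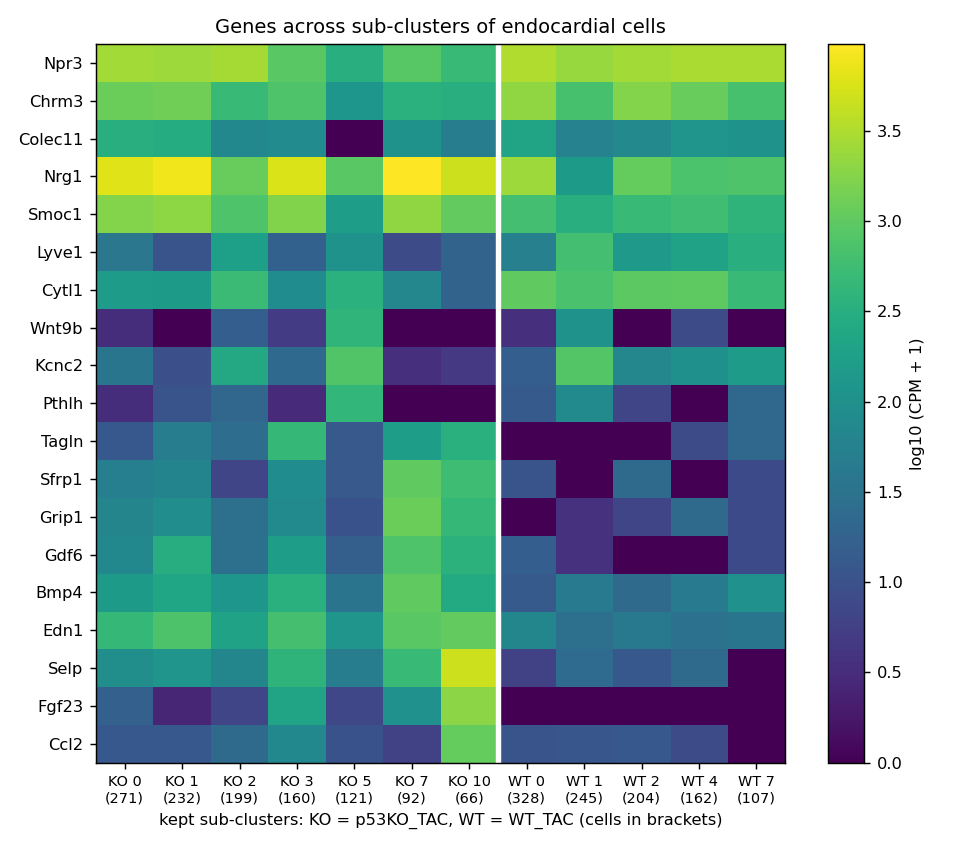
Levels of 19 genes, as log10 of CPM plus 1 (colour), in the kept sub-clusters of the library labelled KO (KO, left) and of the library labelled WT (WT, right). Fgf23, Selp and Ccl2 are brightest in KO 10, and Wnt9b, Kcnc2 and Pthlh in KO 5 and WT 1.

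Levels were also set side by side within the Colec11 and Wnt9b sub-clusters. Selp had log2 ratios of 4.12 and 0.90 in these sub-clusters, and Nr4a2 of -2.32 and -1.52. The Wnt9b sub-clusters of the libraries also differed in Npr3 and in capillary and arterial markers, so their ratios may not compare like cells. Fgf23 is at 0 in the library labelled WT, so its ratio there depends on the count added and is not given. Without the sub-clusters set aside, 82 of the 84 named genes that differed 2-fold still did in the same direction. The log2 ratio of Selp was then 5.61, of Edn1 3.77, of Nrg1 2.23, of Nppa 3.81 and of Cemip 2.41. Genotype, sex and preparation cannot be told apart with 1 library per group, and the spread between animals is not measured.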

How the data were processed

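Single-cell libraries of 2 mixed samples, made with a 3' kit per the labels, were deposited as raw UMI counts per gene and barcode. The authors deposited counts for 32589 gene identifiers, of which 32522 matched the annotation used here for positions. Per the submitters' processing notes, Cell Ranger, Seurat and mm10 were used; no version is given in these sources. Every deposited barcode had at least 500 UMIs.

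UMIs were summed over the cells of each class in each library and expressed per 1000000 nuclear-encoded UMIs (CPM). Log2 ratios had 0.5 UMI added to each sum. Intervals are exact Poisson, conditional binomial or Clopper-Pearson at 95% and cover counting error only. With 1 library per group no test was made, and a gene was counted when it differed at least 2-fold. Mitochondrial, ribosomal protein, haemoglobin, sex-linked and rule genes were left out of these counts, but rule genes that belong to a gene list stay in the counts of that list. Ratios between classes needed 50 UMIs in each library. Depth differed, so shares of cells were repeated after thinning to 500 UMIs.

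Members and the 40 gene lists were chosen with earlier results of these data known. Named genes were the 12 highest and 12 lowest ratios among genes with 100 or more endocardial UMIs in either library and a level at least 0.5 times that over all barcodes, Trp53, up to 4 most counted members and both extremes of each list, and 12 genes each way against capillary cells. Gene models were left out of naming. A gene that this rule names is not reported here. Scrublet's automatic threshold called 0 doublets, so the 8% of barcodes with the highest scores were left out as an alternative only. Sub-clusters (1500 variable genes, 20 components, 15 neighbours, Leiden resolution 1) were added after the data were seen. One was set aside when at least 3 markers of capillary cells or of a non-endothelial class were 2-fold up, with a median log2 fold of at least 0.9. This limit was lowered from 1 after a sub-cluster led by cardiomyocyte genes narrowly missed it. A sub-cluster was also set aside when 5 of its 10 leading genes were unnamed gene models. Arterial, venous and lymphatic markers could not set one aside. Python 3.11.15, numpy 2.4.6, scipy 1.17.1, scanpy 1.11.5, leidenalg 0.10.2 and matplotlib 3.10.9 were used, and the ratio code was tested on simulated data.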

Additional observations from a re-analysis of the deposited data

Results flagged for a closer look

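For 17 named genes the log2 ratio of the library labelled KO over the library labelled WT lay on opposite sides of 0 in endocardial and capillary cells, with both counting intervals clear of 0. With 1 library per group the difference between animals was not tested. Higher in endocardial cells and lower in capillary cells were Emcn (endomucin), with 1.04 against -0.67, Bmp6, with 1.52 against -0.50, and Aqp1, with 0.84 against -0.84. Smaller differences of this kind were seen for Prkg1 (0.13 against -0.20), Dcn (decorin, 0.18 against -0.85) and Meg3 (0.46 against -0.33). Lower in endocardial cells and higher in capillary cells were the flow-responsive factors Klf2, with -0.35 against 1.09, and Klf4, with -0.22 against 1.09, and Igfbp5, with -0.14 against 2.27. The same held for Vim (-0.11 against 0.79), Maml2 (-0.12 against 0.55), Ltbp4 (-0.24 against 0.55), Notch1 (-0.23 against 0.29), Trim25 (-0.24 against 0.28), H2-D1 (-0.17 against 0.21), Epas1 (-0.28 against 0.16) and Zeb1 (-0.49 against 0.14). Ratios of this size in endocardial cells are near the scaling difference of -0.11 for Vim, Maml2, Prkg1 and Igfbp5. Igfbp5 had 10952 and 3682 CPM in the Wnt9b sub-clusters, against 513 and 926 CPM in the other endocardial cells. The flow-response list, which holds Klf2 and Klf4, had 22 measured members. In endocardial cells 4 were at least 2-fold higher and 0 lower, with a median of 0.12. The shares of all genes were 7.13% and 9.64%. In capillary cells 8 were higher and 0 lower, with a median of 0.70. Klf4 is also in the immediate early list.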

How the results depend on the processing

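The log2 ratio of endocardial shares, 0.67, was 0.80 with at least 5 rule UMIs, 0.41 after thinning to 500 UMIs, 0.38 in cells of 1000 to 3000 UMIs, 0.91 with cardiomyocyte genes under 1%, and 0.79 without sub-clusters led by other classes, which was chosen after seeing the data. The 639 higher genes were 224 after thinning, 410 in cells of 1000 to 3000 UMIs, 2670 with no minimum above 1 UMI and 333 with at least 200 UMIs, and the 744 lower genes were 282 after thinning, 4896 with no minimum and 244 with at least 200 UMIs. Thinning and the minimum also change how many genes are counted at all. Over capillary cells, 381 genes were 197, 1193 and 181, and under them 309 were 205, 981 and 178, after thinning, with no minimum and with at least 200 UMIs. Pdpn, 1.28 as reported, was -0.37 after thinning, -0.38 with at least 2 endothelial and at most 1 mesothelial UMI and -0.80 without the sub-clusters, the last 2 chosen after seeing the data. Mki67, -1.75 as reported, was 0.26 after thinning. The cause was not tested. Of 84 named genes past 2-fold, 74 to 82 remained so in the same direction under the other cell choices and scaling. Sub-clusters at resolution 0.5 kept 966 and 1130 cells, and the earlier limit of 1 kept 1141 and 1165 cells. No paired analysis was possible because there is 1 library per group.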
